A study of Mus musculus with 4 samples.

Results

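Lipolysis and the lipid droplet coat were examined through 10 genes: the lipases Pnpla2, Lipe and Mgll, the lipase coactivator Abhd5 and the lipase inhibitor G0s2, the perilipins Plin1, Plin2, Plin3 and Plin4, and the droplet fusion factor Cidec. The genes were listed by function, with earlier results of these data known, and every probe set annotated to one of them was taken. Of the 10, 9 were named on the array by 16 probe sets, out of 18194 named genes. Plin1 was not named by a probe set and was not analysed here. The cells were 3T3-L1, a mouse fibroblast line that turns into fat cells, and all 4 cultures received insulin, dexamethasone and isobutylmethylxanthine and were harvested 24 h after this induction. The cultures carried aof2 siRNA, rfk siRNA, tranylcypromine in the induction medium, or the control siRNA siGL3, with 1 array for each. The siRNAs had been given 24 h before induction, and the labels mention none for tranylcypromine. Aof2 is the older name of Kdm1a, which encodes the flavin-dependent histone demethylase LSD1, Rfk encodes riboflavin kinase, and tranylcypromine inhibits LSD1 and monoamine oxidases.

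Fat cells store triglyceride in droplets bounded by a lipid monolayer and a coat of perilipins. The lipase encoded by Pnpla2 takes the first fatty acid off triglyceride, Abhd5 activates it and G0s2 inhibits it, and the enzymes encoded by Lipe and Mgll cleave the resulting diglyceride and monoglyceride. Plin1 governs access of these enzymes in mature fat cells, Plin2 and Plin3 coat small or nascent droplets in many cell types, Plin4 coats nascent droplets in fat cells, and Cidec lets droplets merge into large ones.

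Promoter sequences are given for Pnpla2 and Plin4, because these were the genes of the set at least 2-fold from control. Each is the 250 bases before the gene's start in the RefSeq table for GRCm38.p6, read 5′ to 3′ on the gene's strand, and all 10 genes were found in that table. The Pnpla2 window lies at chr7:141454938-141455187 on the plus strand, and its capitals mark GC boxes (GGGCGG or its reverse complement CCGCCC) that begin at -109 and -26.
Pnpla2: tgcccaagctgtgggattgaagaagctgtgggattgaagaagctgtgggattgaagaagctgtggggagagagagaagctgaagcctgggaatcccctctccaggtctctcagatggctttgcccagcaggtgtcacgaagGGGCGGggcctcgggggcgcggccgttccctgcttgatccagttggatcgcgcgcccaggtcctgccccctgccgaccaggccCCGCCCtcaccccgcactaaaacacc
The Plin4 window lies at chr17:56109783-56110032 on the minus strand, and its capitals mark a CCAAT box in reverse (ATTGG) that begins at -18.
Plin4: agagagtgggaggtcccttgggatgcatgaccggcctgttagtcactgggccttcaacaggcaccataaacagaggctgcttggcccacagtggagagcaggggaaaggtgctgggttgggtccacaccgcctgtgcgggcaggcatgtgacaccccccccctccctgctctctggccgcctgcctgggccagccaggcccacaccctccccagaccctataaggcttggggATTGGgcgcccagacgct

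The 10 genes had 13 such windows, since some have several starts. A GC box on either strand stood in 6 of the 13 (Pnpla2, Abhd5, Lipe, Mgll, Plin3 and G0s2) and in 32.7% of all 32851 windows in the table. CCAAT or ATTGG stood in 3 of the 13 (Plin2, Plin3 and Plin4) and in 33.8% of all windows. The E-box CACGTG was found in windows of Lipe and Mgll, and in 6.02% of all. TATAAA or its reverse complement occurred in 0 of the 13 and in 12.4% of all windows. No motif contains another, and a match is a match of letters only.

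Signals are MAS5 intensities on a linear scale, a summary of each probe set computed by the authors, and differences are log2 of the signal over that of the control siRNA array. Each gene was represented by its brightest probe set. Levels are compared between arrays and not between genes, except that sums of cell type markers are set beside each other as a rough check. A gene was compared if its mean log2 signal over the 4 arrays was no lower than the median probe set (50.9 as a signal), which 10788 genes met, and 2-fold was used as the threshold. Pnpla2, Abhd5, Lipe, Plin2, Plin3 and Plin4 were among them, while Mgll, G0s2 and Cidec were too dim. With single arrays no test is possible, and a culture's own spread is unknown. As a yardstick for hybridisation and scanning alone, 18 probe sets for spiked-in transcripts had log2 differences of -0.15 to 0.15 with aof2 siRNA, -0.11 to 0.21 with rfk siRNA and -0.26 to 0.14 with tranylcypromine. They leave out the spread between cultures. In bulk RNA, fewer cells of a type and less RNA per cell cannot be told apart.

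The siRNA targets were low on the arrays labelled for them: Kdm1a was at 19.5% of control with aof2 siRNA, and Rfk at 27.0% with rfk siRNA. These are the brightest of 2 probe sets for Kdm1a and of 3 for Rfk, and the others are not given here. The labelled cell type was checked by its markers. Of 10 mature fat cell markers 9 were named, and Adipoq, Lep, Cd36 and Slc2a4 were below the filter, whereas Lpl, Pparg, Fabp4, Cebpa and Retn were above it. Summed signals of the 9 were 6462 with aof2 siRNA, 6968 with rfk siRNA and 5948 with tranylcypromine, against 9005 with control siRNA. Lpl, Fabp4 and Pparg made up most of each sum. Of the 5 compared, 1, 2 and 1 were above control and 4, 3 and 4 below, where 50.7%, 51.5% and 52% of all genes were below. Cebpa was highest each time (0.56, 0.03 and 0.28) and Fabp4 lowest (-0.92, -1.64 and -1.17). The Fabp4 probe sets differed in sign with rfk siRNA and tranylcypromine. For 9 preadipocyte markers the sums were 31723 with aof2 siRNA, 33183 with rfk siRNA and 31420 with tranylcypromine, against 30545 with control siRNA. Most of each such sum came from Fn1, Dlk1 and Pdgfra. Of the 7 preadipocyte markers compared, 4, 5 and 4 were above control and 3, 2 and 3 below. Over all genes 50.7%, 51.5% and 52% were below, and so few markers cannot be told from those shares. Col1a1 was lowest each time (-0.55, -1.01 and -0.98). The 6 macrophage, 5 endothelial, 5 epithelial and 5 skeletal muscle markers summed to between 66.0 and 415 on any array, and most were below the filter (5, 4, 3 and 3 of them). The part of these marker differences in the results below was not tested.

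**Figure D1:**
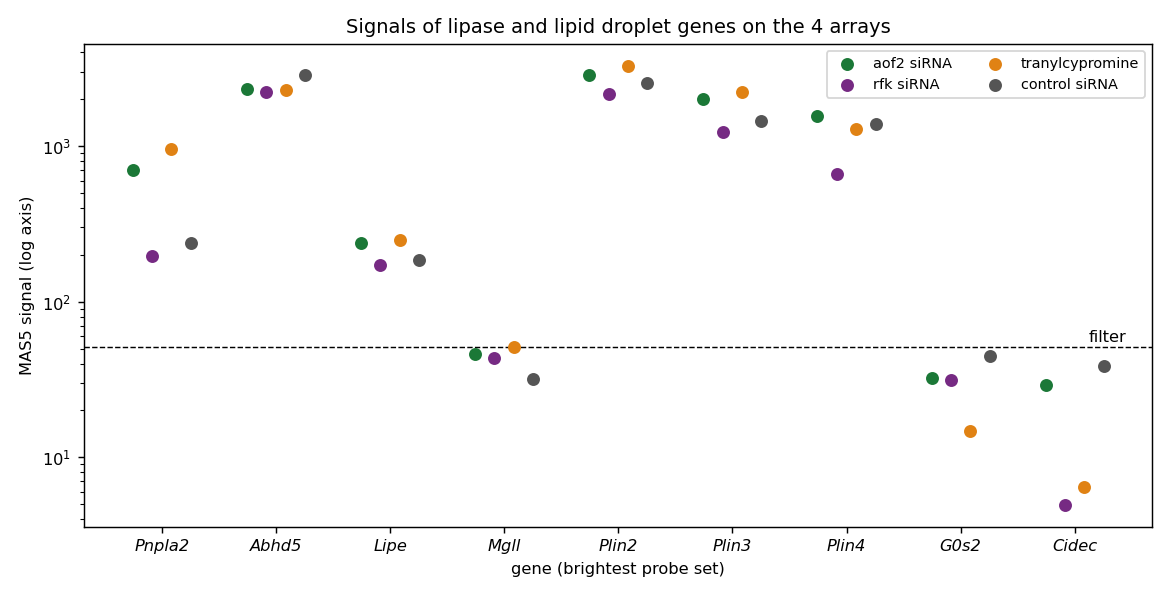
MAS5 signal (log axis) of the 9 genes named on the array, each by its brightest probe set, on the aof2 siRNA, rfk siRNA, tranylcypromine and control siRNA arrays; 1 point is 1 array and the dashed line is the filter at a signal of 50.9. Pnpla2 separates the arrays into 698 and 963 against 197 and 240, while Mgll, G0s2 and Cidec lie at or under the line.

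Pnpla2, the lipase that starts triglyceride breakdown, lay furthest from control among the compared genes of the set with aof2 siRNA and tranylcypromine, but not with rfk siRNA. Its signal was 698 with aof2 siRNA, 197 with rfk siRNA and 963 with tranylcypromine, against 240 with control siRNA. The aof2 siRNA and tranylcypromine arrays were thus high and the other two low. Its log2 differences were 1.54, -0.29 and 2.01, which placed it 46th from the top of 10788 genes with aof2 siRNA and 28th with tranylcypromine. A further Pnpla2 probe set, below the filter, read 47.3, 16.7 and 44.2 on the treated arrays in the same order, against 18.0 with control siRNA. It gave 1.40, -0.10 and 1.30 on the log2 scale, so both probe sets had the same sign in each comparison. Between treated cultures, the brightest Pnpla2 probe set with tranylcypromine was 1.38-fold that with aof2 siRNA (log2 0.46), and 4.90-fold that with rfk siRNA. The dim probe set was instead lower with tranylcypromine (44.2) than with aof2 siRNA (47.3). For tranylcypromine, the drug and the apparent lack of transfection cannot be told apart.

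Abhd5, which encodes the coactivator of that lipase, did not share this pattern. The signals were 2327 with aof2 siRNA, 2225 with rfk siRNA and 2290 with tranylcypromine, against 2862 with control siRNA. All 3 treated arrays were low, at 81.3%, 77.7% and 80.0% of control, and close to each other (log2 -0.06 for rfk siRNA over aof2 siRNA). A second bright Abhd5 probe set read 998 with aof2 siRNA, 788 with rfk siRNA and 788 with tranylcypromine, against 855 with control siRNA, so with aof2 siRNA its sign was the opposite one (0.22 against -0.30). The third, with signals of 0.814 to 21.1, gave differences of 3.18 to 4.70 on the log2 scale. Averaging all 3 probe sets turned the sign of Abhd5 in each comparison, to 1.31, 1.41 and 0.91, through this dim one, whose control signal was 0.814. Both bright probe sets were below control with rfk siRNA and tranylcypromine, but the second by only -0.12 each time. That was within the range of the hybridisation controls with tranylcypromine and just past its lower end with rfk siRNA.

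Lipe, which encodes hormone-sensitive lipase, had the same order of arrays as the brightest Pnpla2 probe set, with smaller gaps. It had 238 with aof2 siRNA, 172 with rfk siRNA and 249 with tranylcypromine, against 186 with control siRNA. These are log2 differences of 0.36, -0.11 and 0.42. A dim Lipe probe set, with signals of 2.61 to 34.7, had the same 3 signs (1.35, -2.26 and 1.47).

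Mgll, which encodes monoglyceride lipase, had 4 probe sets, all below the filter. The brightest read 46.1 with aof2 siRNA, 43.4 with rfk siRNA and 50.8 with tranylcypromine, against 31.7 with control siRNA. The 4 probe sets spanned log2 differences of -0.66 to 1.06, -3.61 to 0.86 and 0.25 to 1.72, and so agreed in sign only for tranylcypromine. G0s2, the inhibitor of the Pnpla2 product, read 32.2, 31.2 and 14.8 on the treated arrays in that order, against 45.0 with control siRNA. All 3 were lower, and the tranylcypromine array was lowest at 32.9% of control, but this probe set was under the filter on every array.

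**Figure D2:**
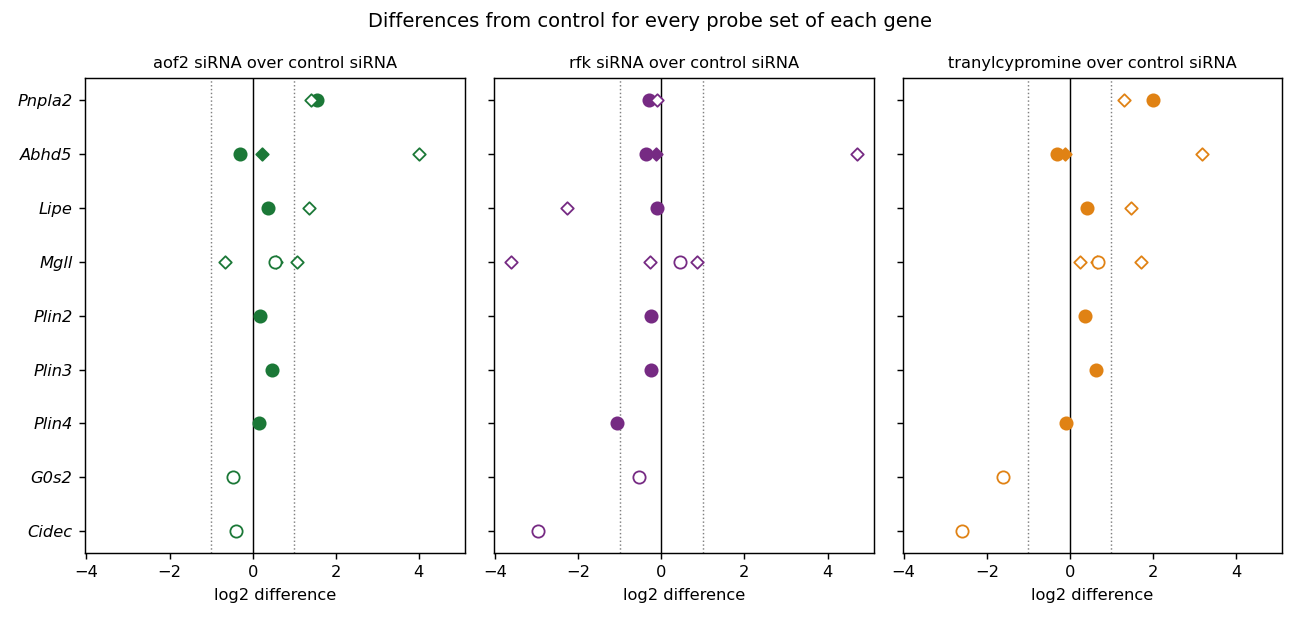
Log2 difference from control siRNA (x axis) of all 16 probe sets of the 9 genes (y axis), with aof2 siRNA, rfk siRNA and tranylcypromine from left to right. Circles are the probe sets that represent the gene and diamonds the others, filled where the mean signal reached the filter, and dotted lines mark 2-fold; the filled Pnpla2 circles stand at 1.54 and 2.01 with aof2 siRNA and tranylcypromine, and the filled Plin4 circle at -1.06 with rfk siRNA, while open symbols scatter widely.

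Among coat proteins, Plin4 was the gene past 2-fold, in a different culture from Pnpla2. It had 1553 with aof2 siRNA, 667 with rfk siRNA and 1292 with tranylcypromine, against 1389 with control siRNA. The rfk siRNA array was low, at 48.0% of control, and the other 3 lay close together. With rfk siRNA its log2 difference was -1.06, close to the threshold of -1, and 74th from the bottom of 10788 genes. Its values with aof2 siRNA and tranylcypromine were 0.16 and -0.11, of which the second was within the range of the hybridisation controls on that array. Plin4 had 1 probe set, so no second reading is at hand.

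Plin3, which moves from the cytosol to nascent droplets, read 2018, 1236 and 2244 with aof2 siRNA, rfk siRNA and tranylcypromine, against 1456 with control siRNA. It was higher in the same 2 arrays as Pnpla2, by 0.47 and 0.62 on the log2 scale, and its value with rfk siRNA was -0.24. Plin2, the coat protein of droplets in most cells, read 2881 with aof2 siRNA, 2152 with rfk siRNA and 3277 with tranylcypromine, against 2536 with control siRNA. Its differences were 0.18, -0.24 and 0.37. Plin2 and Plin3 each had 1 probe set. Both showed the order of arrays seen for Lipe and the brightest Pnpla2 probe set. From low to high this was rfk siRNA, control siRNA, aof2 siRNA, tranylcypromine. Whether neighbours in that order differ beyond a culture's spread cannot be said from single arrays.

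Cidec read 29.1 with aof2 siRNA, 4.94 with rfk siRNA and 6.41 with tranylcypromine, against 38.5 with control siRNA. The rfk siRNA and tranylcypromine arrays were low, at 12.8% and 16.6% of control, yet all 4 signals were below the filter. In that range log2 differences scatter widely, as the open symbols in the plot of all probe sets show.

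Counts over the 6 compared genes were as follows. With aof2 siRNA 1 of 6 was at least 2-fold higher (Pnpla2), where 1.61% of all compared genes were, and 0 were 2-fold lower, where 0.538% were. Of the 6, 5 were above control, as were 49.3% of all genes, and 1 was below (Abhd5; background 50.7%). The median was 0.27, beside -0.004 for all genes compared. Over all genes 174 were 2-fold higher and 58 lower, and after median centring of each array 134 and 77, with Pnpla2 called in both.

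In the rfk siRNA array all 6 were below control, as were 51.5% of all genes. Of these, 1 was at least 2-fold lower (Plin4; background 0.806%) and 0 were 2-fold higher (0.927%). The median was -0.26, beside -0.009 for all genes. Lipe, at -0.11, lay at the edge of the range of the hybridisation controls on that array.

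With tranylcypromine 1 of 6 was at least 2-fold higher (Pnpla2; background 2.23%) and 0 were 2-fold lower (0.945%). Pnpla2, Lipe, Plin2 and Plin3 were above control, as were 48% of all genes, and Abhd5 and Plin4 below, as were 52%. At 1.5-fold, Plin3 was added to Pnpla2 (2 of 6, where 7.48% of all genes were that much higher). The median was 0.40, beside -0.016 for all genes. The 3 comparisons share the control array, so a high or low control signal would shift all of them. Above control with aof2 siRNA and tranylcypromine but below it with rfk siRNA were 4 of the 6 genes (Pnpla2, Lipe, Plin2 and Plin3), and 1254 of all 10788 (11.6%). This pattern is that of Pnpla2 itself, and the genes were chosen with earlier results of these data known. The count is therefore a description and no evidence of enrichment. With rfk siRNA these 4 stood at no more than -0.29, -0.11, -0.24 and -0.24.

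**Figure D3:**
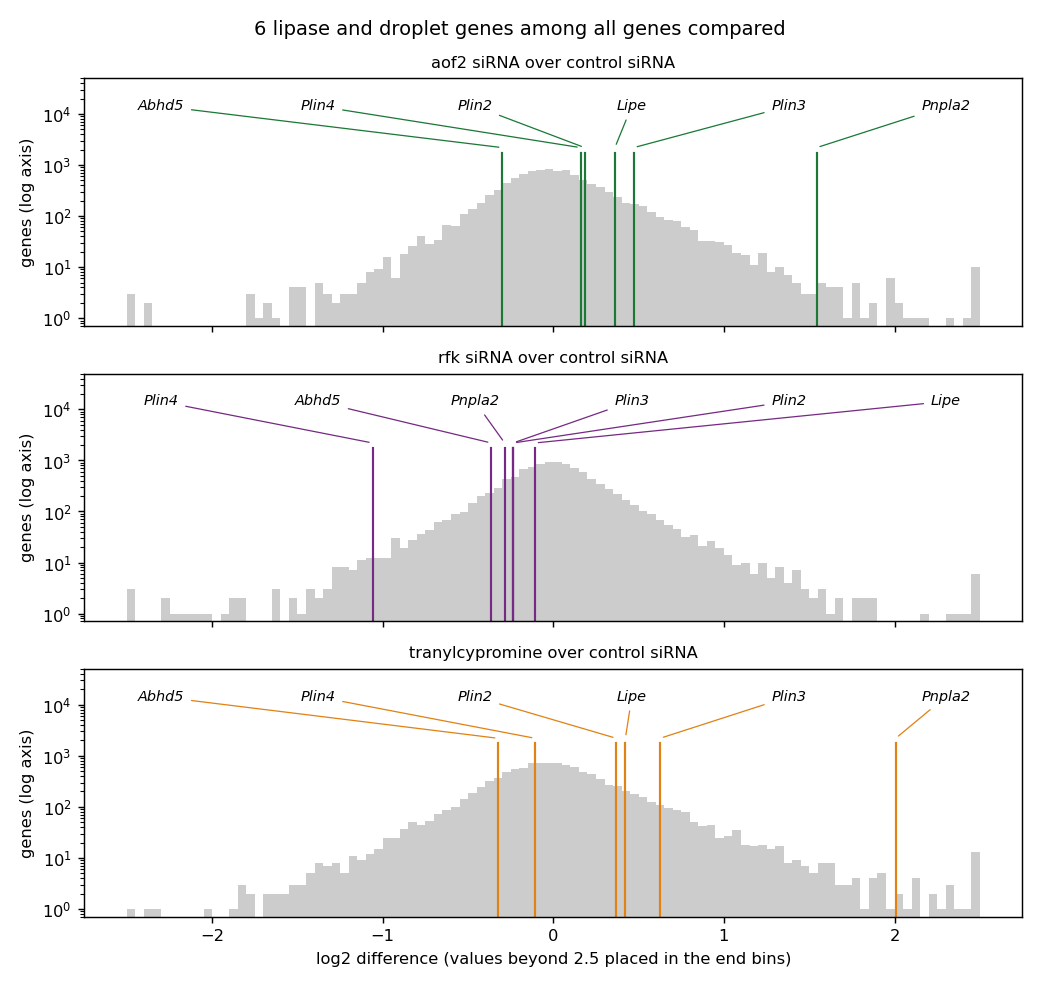
Number of the 10788 compared genes (log axis) by log2 difference from control siRNA (x axis), with aof2 siRNA at the top, rfk siRNA in the middle and tranylcypromine at the bottom; lines mark the 6 compared lipase and droplet genes. Pnpla2 stands in the upper tail with aof2 siRNA (46th) and tranylcypromine (28th), Plin4 in the lower tail with rfk siRNA (74th from the bottom), and the other lines stand in the body of the distribution.

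Comparisons that leave out the control array set the treated cultures against each other. With rfk siRNA over aof2 siRNA all 6 genes were lower, as were 51.5% of all genes. At least 2-fold lower were 2 of the 6, Pnpla2 (log2 -1.83) and Plin4 (-1.22), where 1.6% of all genes were, and the median was -0.59, beside -0.009 for all genes. With tranylcypromine over rfk siRNA all 6 were higher, as were 50.7% of all genes, but Abhd5 by no more than 0.04. Here 1 of 6 was at least 2-fold higher, Pnpla2 at 2.29 (background 2.28%), and Plin4 at 0.95 and Plin3 at 0.86 came next. At 1.5-fold 4 of 6 were higher, with Plin2 added, where 7.87% of all genes were. With tranylcypromine over aof2 siRNA 0 of the 6 were 2-fold apart, where 1.64% of all genes were. Their median was 0.11, with Pnpla2 highest at 0.46 and Plin4 lowest at -0.27. These comparisons share arrays with each other too.

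The wider pathway was described by 78 further genes, of which 70 were named and 52 compared. Among 11 compared lipases outside the set, 0 were 2-fold from control in any comparison. Of all compared genes 1.61%, 0.927% and 2.23% were 2-fold higher with aof2 siRNA, rfk siRNA and tranylcypromine, and 0.538%, 0.806% and 0.945% lower. With 11 genes a count of 0 is near those shares. The medians of the 11 were 0.01, -0.10 and 0.02 in that order. Lipa, the lysosomal acid lipase, was highest with aof2 siRNA (0.57) and rfk siRNA (0.35). Dagla, which makes monoglyceride from diglyceride, was highest with tranylcypromine (0.86) and lowest with rfk siRNA (-0.27). Lpl, the secreted lipoprotein lipase, was lowest with aof2 siRNA (-0.43) and tranylcypromine (-0.47), with signals of 3919 and 3808 against 5272 with control siRNA. The related gene Pnpla3, with 1 probe set, was at 0.37, -0.21 and -0.01. It lay near control with tranylcypromine, where Pnpla2 was 4.02-fold higher, but its signals of 51.8 to 77.5 were close to the filter.

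Of 18 compared droplet proteins outside the set, 0 were 2-fold from control in any comparison, also near the shares of all genes. Their medians were -0.05, 0.06 and -0.01 in the same order. Highest were Mettl7a1 with aof2 siRNA (0.30), Hilpda, an inhibitor of the Pnpla2 product, with rfk siRNA (0.49), and the sterol enzyme gene Sqle with tranylcypromine (0.36). Lowest were Pcyt1a, whose enzyme supplies phosphatidylcholine to growing droplets, with aof2 siRNA (-0.44) and tranylcypromine (-0.43), and Fitm2, which helps droplets form, with rfk siRNA (-0.37). The signs of Pcyt1a varied among its 4 probe sets in all 3 comparisons.

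Hormonal control of lipolysis runs through adrenergic receptors, cyclic AMP and protein kinase A, and is held back by insulin. The 16 compared genes had medians of 0.01, 0.03 and 0.01 in that order, and the listed adrenergic receptor genes were not named here. Prkar2a, a regulatory subunit of protein kinase A, was highest in all 3 comparisons (0.82, 1.22 and 0.91). With rfk siRNA it was the 1 gene of the 16 past 2-fold, where 0.927% of all compared genes were 2-fold higher. Its signals were 1792 with aof2 siRNA, 2365 with rfk siRNA and 1907 with tranylcypromine, against 1017 with control siRNA, but its 4 probe sets ranged from -2.25 to 2.25, -2.13 to 1.97 and -0.40 to 2.40. Lowest were Pde3b, which degrades cyclic AMP under insulin, with aof2 siRNA (-0.20), the regulatory subunit gene Prkar2b with rfk siRNA (-0.35), and the catalytic subunit gene Prkacb with tranylcypromine (-0.67). The 3 probe sets of Prkacb ranged from -0.91 to 0.66 there.

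Genes that handle fatty acids and glycerol lay mostly below control. Of 7 compared, 6, 6 and 5 were below it with aof2 siRNA, rfk siRNA and tranylcypromine, where 50.7%, 51.5% and 52% of all compared genes were, with medians of -0.17, -0.37 and -0.21. Fabp4, whose product carries fatty acids in fat cells and binds hormone-sensitive lipase, was lowest each time (-0.92, -1.64 and -1.17). With rfk siRNA and tranylcypromine it was the 1 gene of the 7 past 2-fold, where 0.806% and 0.945% of all genes were 2-fold lower. Its signals were 1301 with aof2 siRNA, 791 with rfk siRNA and 1093 with tranylcypromine, against 2463 with control siRNA, but its 4 probe sets differed in sign in those comparisons, at -3.53 to 0.33 and -3.07 to 0.57. Highest were the acyltransferase gene Agpat2 with aof2 siRNA (0.15) and Fabp5 with rfk siRNA (0.10) and tranylcypromine (0.30). By its brightest probe set, Fabp4 was thus low with rfk siRNA, where Plin4 was low. That probe set was also low in the 2 arrays where Pnpla2 was high. With aof2 siRNA the 4 Fabp4 probe sets ranged from -4.62 to -0.09. The same control signal enters all 3 comparisons.

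**Figure D4:**
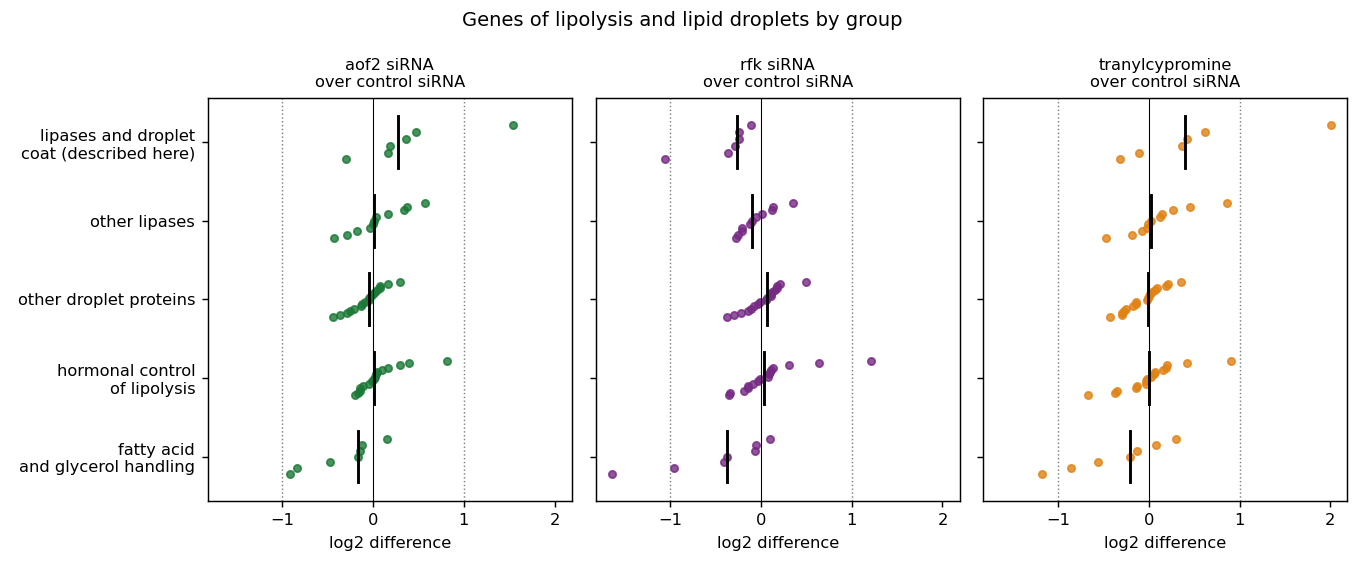
Log2 difference from control siRNA (x axis) of the compared genes in 5 groups (y axis), with aof2 siRNA, rfk siRNA and tranylcypromine from left to right; points are genes, black bars are medians and dotted lines mark 2-fold. The medians of the 6 genes described here are 0.27, -0.26 and 0.40, those of the lipases, droplet proteins and hormonal control genes lie between -0.10 and 0.06, and those of fatty acid and glycerol handling are -0.17, -0.37 and -0.21.

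For Pnpla2 and Plin4, the 4 compared genes with the most similar triplet of log2 differences were found by Euclidean distance over the 3 comparisons, that is, over 4 arrays. Nearest to Pnpla2 were the galectin gene Lgals7 (distance 0.26), the keratin gene Krt19 (0.36), the claudin gene Cldn9 (0.50) and the lipid phosphodiesterase gene Gdpd1 (0.63). Gdpd1 read 587, 283 and 861 with aof2 siRNA, rfk siRNA and tranylcypromine, against 229 with control siRNA. Nearest to Plin4 were Rwdd2a (0.11), the nicotinamide methyltransferase gene Nnmt (0.12), Tmem198 (0.13) and Tbkbp1 (0.15). Nnmt read 1709 with aof2 siRNA, 753 with rfk siRNA and 1369 with tranylcypromine, against 1588 with control siRNA. All 8 were chosen for this likeness, so it is no finding about them.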

How the data were processed

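Total RNA of 4 cultures was labelled from 250 ng and measured on Affymetrix 3' expression arrays with 45101 probe sets, 1 per group, per the labels. The deposited values are MAS5 signals, linear intensities made by the authors, per the submitters' processing notes; for version, scaling target and detection calls the sources used here give nothing. The mean without the lowest and highest 2% was 500.003 on each array, so totals of RNA cannot be compared.

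No offset was added before log2. The platform annotation gave 1 symbol for 34958 probe sets, several for 932 and none for 9211, and 34754 matched the RefSeq table of GRCm38.p6 by gene identifier. Array depth has no counterpart here, and the number of arrays limits the precision. The genes, pathway lists and marker lists were chosen with earlier results of these data known. Named were all 10 genes, the siRNA targets, the extremes of each pathway list, and the 4 nearest patterns of Pnpla2 and Plin4. Pnpla3 and the example signals were picked after values were seen. The steps were tested on simulated data with differences well past the 2-fold threshold, so calls near that threshold were not examined. The 9 alternatives changed scaling, offset, filter, probe set summary, reference or threshold. Python 3.11.15, NumPy 2.4.6, pandas 2.3.3 and matplotlib 3.10.9 were used.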

Additional observations from a re-analysis of the deposited data

How the results depend on the processing

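Pnpla2 was past 2-fold with aof2 siRNA and tranylcypromine, and Plin4 with rfk siRNA, under median centring, quantile normalization, an offset of 32, no filter, a filter at the 75th percentile (a signal of 414), the mean of all probe sets, omission of _x_at and _s_at probe sets and a 1.5-fold threshold. Against the mean of the 3 other arrays Pnpla2 with aof2 siRNA stood at 0.97 and 0 of the set were called there. With rfk siRNA 2 of 6 were called (Pnpla2 and Plin4), where 42 of all 10788 genes were higher and 104 lower. Without a filter 2 of 9 genes were called with rfk siRNA (Plin4 and Cidec), where 1809 of all 18194 genes were higher and 1697 lower. With tranylcypromine 3 of 9 were called (Pnpla2, G0s2 and Cidec), where 2234 of the 18194 were higher and 1557 lower. At 1.5-fold 2 of 6 were called with tranylcypromine, where 807 of 10788 genes were higher and 515 lower. The mean of all probe sets, which lets dim ones weigh in full, called 2 of 6 with aof2 siRNA (Pnpla2 and Abhd5). Of all 9912 genes compared that way, 210 were higher and 94 lower. With rfk siRNA it called 3 of 6 (Abhd5, Lipe and Plin4), where 142 of the 9912 were higher and 149 lower. The median of the set with aof2 siRNA was 0.20 under centring, 0.18 without a filter and with the stricter one, and 0.66 with the mean of all probe sets, which gave 0.77 for tranylcypromine. With rfk siRNA it was -0.51 against the 3 other arrays. A median counted as moved when it shifted by more than the SD of the hybridisation controls. Of 177 values of single genes, 163 kept direction and side of the threshold and 4 fell below it, 2 passed it in the same direction, and 8 that were within 2-fold changed sign, among them Abhd5 in all 3 comparisons with the mean of all probe sets. Of values past 2-fold, 0 changed sign. Genes called over the whole table (higher and lower; with aof2 siRNA, rfk siRNA and tranylcypromine) were 174 and 58, 100 and 87, and 241 and 102. They became 95 and 28, 52 and 37, and 149 and 49 of 10795 with the offset. Without a filter they were 2016 and 1502, 1809 and 1697, and 2234 and 1557 of 18194. The stricter filter gave 38 and 7, 23 and 17, and 67 and 21 of 6873. The mean of all probe sets gave 210 and 94, 142 and 149, and 253 and 199 of 9912. The 3 other arrays as reference gave 45 and 29, 42 and 104, and 104 and 80 of 10788. At 1.5-fold there were 675 and 311, 423 and 410, and 807 and 515 of 10788. The cause of these shifts was not tested, apart from fewer or more genes being let in by filter and threshold. No paired analysis was possible because each group has 1 array, and for the same reason no array could be left out of its group.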

Other observations

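Genes beside the set on the chromosome were looked at after the values had been seen. Of the 2 protein-coding genes on either side of each of the 10 genes in the RefSeq order, 27 outside the set were compared. At least 2-fold higher than control were 0 of them in any of the 3 comparisons, where 1.61%, 0.927% and 2.23% of all compared genes were. At least 2-fold lower were 0 with aof2 siRNA, 0 with rfk siRNA and 1 with tranylcypromine (Abtb1 at -1.38, beside Mgll). Over all genes 0.538%, 0.806% and 0.945% were that much lower. With 27 genes these counts are near those shares, so they are no finding about the neighbours. Beside Pnpla2, Rplp2 was at 0.05, 0.04 and 0.15 with aof2 siRNA, rfk siRNA and tranylcypromine, and Cd151 at 0.36, 0.09 and 0.14. Pidd1 was at -0.78, 0.13 and 0.15, below control with aof2 siRNA where Pnpla2 was above it.

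Plin4, Plin5 and Lrg1 follow each other on chromosome 17. Plin5, a perilipin of oxidative tissues, read 58.5, 7.24 and 32.5 with aof2 siRNA, rfk siRNA and tranylcypromine, against 40.1 with control siRNA. Lrg1, which encodes a secreted glycoprotein, read 34.6 with aof2 siRNA, 1.71 with rfk siRNA and 11.4 with tranylcypromine, against 31.1 with control siRNA. Both had their lowest signal with rfk siRNA, as Plin4 did. Both are below the filter, where signals scatter, and a further Plin5 probe set gave 0.77 with rfk siRNA. On the other side of Plin4, Hdgfl2 stood at -0.24, -0.32 and -0.32 with aof2 siRNA, rfk siRNA and tranylcypromine. Ubxn6 stood at -0.18, -0.26 and -0.09 in that order, so both were below control on every treated array.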
